A study of Mus musculus with 11 samples.

Results

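The transcription factor NRF2, encoded by *Nfe2l2*, and 9 genes of the antioxidant defence were examined in sinusoidal ECs of the liver, in mice raised without microbes (germ-free, GF) and in mice with a microbiota (conventionally raised, CONV-R). The 10 genes are *Nfe2l2*, *Nqo1*, *Gclc*, *Gclm*, *Txnrd1*, *Srxn1*, *Gsr*, *Cat*, *Sod1* and *Sod2*. They were taken by gene name, with no threshold on their values but with earlier results of these data known, and all 10 were found among the 29307 genes of the count table. GF mice live in sterile isolators, whereas CONV-R mice carry a specific-pathogen-free microbiota. Both groups were male C57BL/6J mice of 10 to 12 weeks that came from the same colonies and ate the same diet, with no transgene and no drug. The RNA of 6 CONV-R and 5 GF mice was sequenced, with 1 library per mouse, after sorting for CD146 on magnetic beads and for CD31, CD105 and CD146 by FACS. The comparison asks whether the absence of a microbiota goes along with another level of these transcripts in the endothelium of the liver sinusoids.

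In most cells NRF2 protein is bound by KEAP1, which hands it to a CUL3 ubiquitin ligase for degradation. Oxidants and electrophiles modify cysteines of KEAP1, and NRF2 then accumulates and binds, with a small MAF protein, to antioxidant response elements in the promoters of its target genes. BACH1 and BACH2 compete for the same elements. Since NRF2 is controlled largely by the stability of the protein, the *Nfe2l2* transcript is not a measure of NRF2 activity, and the transcripts of its targets are closer to one. *Nqo1* (quinone reductase), *Gclc* and *Gclm* (the 2 subunits of the enzyme that limits glutathione synthesis), *Txnrd1* (thioredoxin reductase) and *Srxn1* (sulfiredoxin, which repairs overoxidised peroxiredoxins) are classical targets. *Gsr* restores reduced glutathione, and *Cat*, *Sod1* and *Sod2* encode catalase and the superoxide dismutases of the cytosol and of mitochondria.

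Promoter windows were searched for the core of the antioxidant response element, since the named targets are known for responding through it. The windows came from RefSeq on GRCm38.p6 and held 250 bases before and 50 bases after each annotated start. The letters TGACNNNGC and the close variant TGAGNNNGC were searched on both strands. Among all 32851 windows, 12.4% held the first, 17.6% the second and 27.8% either of them. Of the 10 genes, 8 had a window and 5 of these held a match, whereas *Nqo1*, *Cat* and *Sod2* had none. This count is per gene, with several windows for *Txnrd1*, and the 27.8% is per window. With so few genes nothing is read from the count. *Gclc* and *Gsr* had no window in the table used. The stretches around the matches follow, with the match in capitals, read 5′ to 3′ on the strand of the gene.
*Nfe2l2*, chr2:75704879-75704913, minus strand: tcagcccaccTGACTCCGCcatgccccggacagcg
*Gclm*, chr3:122245407-122245447, plus strand: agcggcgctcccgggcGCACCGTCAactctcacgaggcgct
*Txnrd1*, chr10:82859098-82859138, plus strand: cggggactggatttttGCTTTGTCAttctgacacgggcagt
*Sod1*, chr16:90220690-90220730, plus strand: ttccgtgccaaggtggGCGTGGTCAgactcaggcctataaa
*Srxn1*, chr2:152105350-152105503, plus strand: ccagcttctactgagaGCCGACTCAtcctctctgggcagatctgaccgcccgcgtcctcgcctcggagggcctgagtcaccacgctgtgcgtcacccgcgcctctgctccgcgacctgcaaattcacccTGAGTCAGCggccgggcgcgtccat
The matches of *Nfe2l2*, *Gclm*, *Txnrd1* and *Sod1* begin 240, 134, 92 and 56 bases before the start of transcription, that of *Txnrd1* in 1 of its 3 windows. *Srxn1* had 3 matches, of which both upstream ones are shown. The 250 bases before the start of *Nqo1*, the gene with the largest difference between the groups among the 10, are shown for comparison and have no capitals since they hold neither set of letters.
*Nqo1*, chr8:107403206-107403455, minus strand: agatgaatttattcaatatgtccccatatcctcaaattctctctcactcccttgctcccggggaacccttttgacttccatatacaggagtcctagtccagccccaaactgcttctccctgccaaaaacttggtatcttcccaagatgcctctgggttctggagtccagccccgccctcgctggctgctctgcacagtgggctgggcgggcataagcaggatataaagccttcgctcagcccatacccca
A match of letters in such a window is not a measured binding site, and elements farther from the start were not searched.

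The libraries held 7242717 to 16164588 counts. Levels are in CPM, that is, counts scaled by the TMM-adjusted library total and set to the same total in each library. The transcripts of 14 sinusoidal EC markers summed to between 36070.3 and 51211 CPM in all 11 mice, and those of 12 hepatocyte markers to between 27.3 and 85.8 CPM. The summed level of 14 Kupffer cell markers lay between 523 and 758 CPM in CONV-R and between 659 and 1732 CPM in GF mice, and 9 of the 13 tested ones were higher in GF mice. CONV-R replicate 3 stood apart, with a score of -48.1 on PC2 (15.8% of the variance), where the other CONV-R mice lay between 6.01 and 17.6. GF replicate 2 had counts for 22674 genes, against 15456 to 18495 in the other libraries. The libraries had been amplified before sequencing. In bulk RNA of sorted cells, a smaller share of 1 cell type and less RNA per cell cannot be told apart. The paper reports several times fewer sorted ECs, and far less extracted RNA, from GF than from CONV-R livers. Among its limitations it names poor survival of the cells after sorting, with no value per group. These differences in yield run with the groups, and their part in the levels below was not tested.

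None of the 10 genes differed between GF and CONV-R ECs at an adjusted p under 0.05 (edgeR's quasi-likelihood test, Benjamini-Hochberg adjustment over 12905 genes). Among all tested genes 7.48% passed this threshold, 4.80% higher and 2.67% lower in GF mice. DESeq2, which called 9.83% of its genes, and limma voom also called 0 of the 10. At an unadjusted p under 0.05, which 23.0% of all genes reached, 1 of the 10 passed, *Nqo1*. The CPM of the GF and CONV-R mice overlapped for each of the 10 genes, whereas 5.59% of all tested genes had groups that did not overlap, 3.22% with the GF mice above and 2.37% with them below. Log2FC, the log2 ratio of GF to CONV-R, was above 0 for 4 and below 0 for 6 genes, with a median of -0.01, and the median over all tested genes was also -0.01. The median size of Log2FC without its sign was 0.09 for the 10 genes and 0.24 for all tested genes. The 10 genes had 1134 to 52642 counts each over all libraries, whereas the tested genes include far weaker ones, whose Log2FC scatters more by counting error. No set of genes of matched level was compared, so the 2 medians do not show that the 10 genes are unusually stable. For 9 of the 10 genes the 95% interval of the fold lay within 1.5-fold in either direction, between 0.728 and 1.45 over the 9. The exception was *Nqo1*, whose interval of 0.439 to 0.887 leaves out equal levels.

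**Figure D1:**
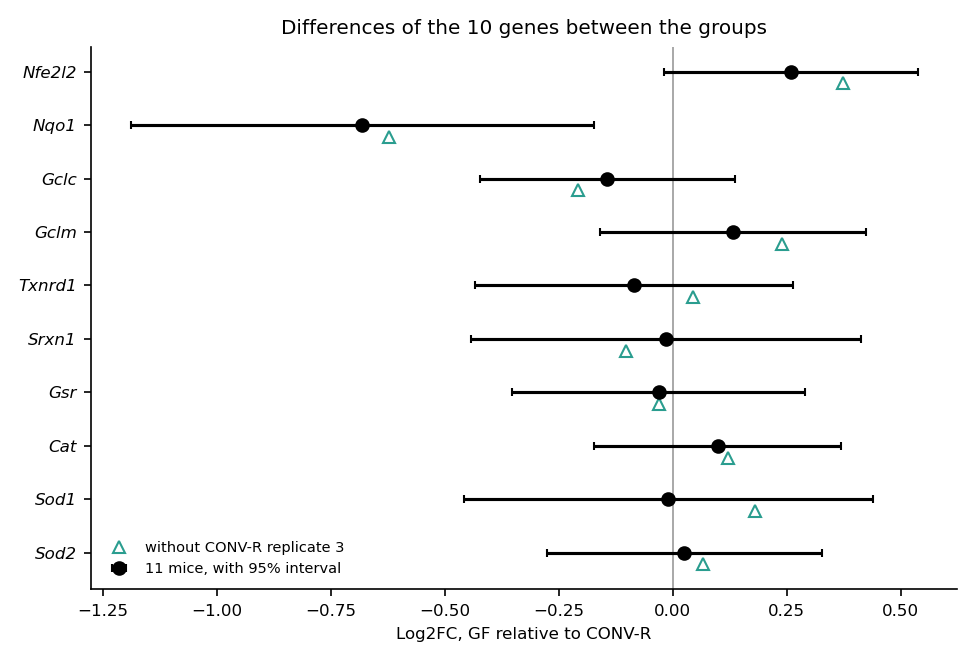
Log2FC of the 10 genes in GF relative to CONV-R ECs. Filled points with bars give the estimate and the 95% interval from edgeR over 11 mice, and open triangles give the estimate without CONV-R replicate 3. Only the interval of *Nqo1* lies wholly on 1 side of 0, and the triangle of *Nfe2l2* lies at 0.37 against 0.26 with all mice.

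*Nfe2l2* (ENSMUSG00000015839, chromosome 2, 75675513 to 75704641, minus strand of GRCm38) was the most abundant of the 10 transcripts per length. CONV-R mice had 345 CPM at the lowest, 372 at the median and 551 at the highest. GF replicates 1, 2, 4, 5 and 6 had 467, 388, 537, 446 and 541 CPM, and GF values below follow this order. All 5 GF mice lay above the CONV-R median, and none lay above the highest CONV-R mouse, which was replicate 3. The means were 476 ± 64.7 CPM in GF (SD, n = 5) and 397 ± 78.1 in CONV-R mice (SD, n = 6), a Log2FC of 0.26 with a standard error of 0.13 (edgeR, adjusted p = 0.250). Without CONV-R replicate 3 the Log2FC was 0.37, a 1.30-fold higher level, and passed the threshold (edgeR, adjusted p = 0.0380). Leaving out any other single mouse gave 0.21 to 0.33 and no call. Without GF replicate 6, the mouse with the most Kupffer cell marker counts, it was 0.21 (edgeR, adjusted p = 0.442), and the part of these markers in the level of *Nfe2l2* was not tested.

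The genes that control NRF2 protein or compete with it were a list of 15, all of them tested, of which 1 was higher and 0 lower. That is 6.67% of the list, against 7.48% of all genes in either direction and 4.80% higher. The higher one was *Bach2*, a repressor best known from lymphocytes. It had 25.4 to 31.7 CPM in CONV-R mice, (median 27.1), and 39.2, 34.9, 45.7, 37.5 and 39.2 CPM in GF replicates 1, 2, 4, 5 and 6. The groups did not overlap, and the Log2FC reached 0.49 with a standard error of 0.12 (edgeR, adjusted p = 0.0233). The call was lost without CONV-R replicate 2, CONV-R replicate 6 or GF replicate 4 (edgeR, adjusted p = 0.0520 to 0.0613) and without a filter on low counts (edgeR, adjusted p = 0.0738). The summed level of 8 lymphocyte markers lay between 4.90 and 13.2 CPM in CONV-R and between 3.57 and 5.71 CPM in GF mice, and the part of lymphocyte RNA in the level of *Bach2* was not tested. *Bach1*, the repressor present in most tissues, had 55.3 to 85.4 CPM in CONV-R mice and 45.3, 49.5, 72.4, 55.0 and 54.3 CPM in GF mice, with 4 of 5 GF mice below all CONV-R mice. Its Log2FC of -0.29 did not pass (edgeR, adjusted p = 0.243). *Keap1* had 17.5 ± 3.91 CPM in CONV-R (SD, n = 6) and 18.3 ± 4.04 in GF mice (SD, n = 5), with a Log2FC of 0.06 (edgeR, adjusted p = 0.888), and shares exon bases with *Gm16754* (483 counts over all libraries against 2304). *Gsk3b*, a kinase that marks NRF2 for another ligase, and *Cul3* had Log2FC values of 0.04 and 0.02 (edgeR, adjusted p = 0.895 and 0.949).

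**Figure D2:**
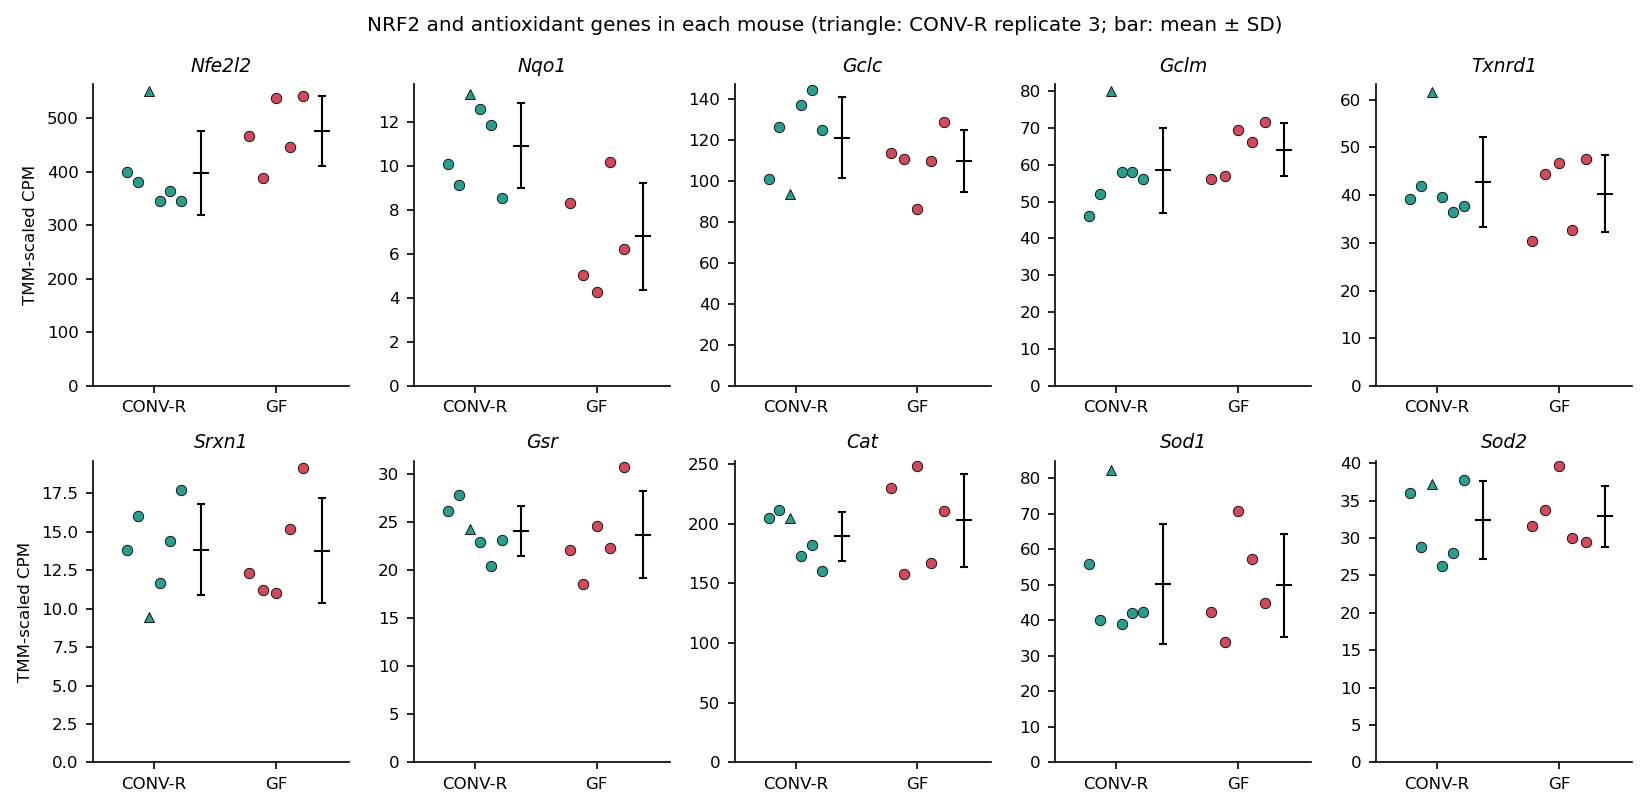
CPM of the 10 genes in each mouse, with CONV-R mice in turquoise and GF mice in red. Each point is 1 mouse, the triangle is CONV-R replicate 3, the bar is the mean with its SD, and each axis starts at 0. The groups overlap in all 10 panels, and in *Nqo1* 4 of the 5 GF mice lie below all CONV-R mice.

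*Nqo1* (ENSMUSG00000003849, chromosome 8, 107388225 to 107403206, minus strand) was weakly expressed, with 45 to 157 counts per library. CONV-R mice had 8.54 CPM at the lowest, 10.98 at the median and 13.3 at the highest. GF replicates 1, 2, 4, 5 and 6 had 8.32, 5.02, 4.29, 10.2 and 6.24 CPM. Thus 4 of the 5 GF mice lay below every CONV-R mouse, and GF replicate 5 lay among them. The means were 6.81 ± 2.42 CPM in GF (SD, n = 5) and 10.9 ± 1.94 in CONV-R mice (SD, n = 6), giving a Log2FC of -0.68 (standard error 0.24). In edgeR the p was 0.0116 before and 0.0968 after adjustment, and the adjusted p values of DESeq2 and limma voom, from their own tests, were 0.0533 and 0.0808. Without GF replicate 5 the Log2FC was -0.86 (edgeR, adjusted p = 0.0335). The other single mice left out gave -0.77 to -0.55 without a call, and -0.65 without GF replicate 6.

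The wider list of NRF2 targets held 32 genes, among them glutathione S-transferases, aldo-keto reductases and ferritins. Of the 32, 24 were tested and 0 called, against 7.48% of all genes. At an unadjusted p under 0.05 there were 5, against 23.0% of all genes, and DESeq2 called 2, against 9.83% of all genes. The median Log2FC of the 24 genes was 0.00, with 12 above and 12 below 0. *Hmox1*, heme oxygenase 1, had 28.7 CPM at the median of CONV-R and 28.2 CPM at the median of GF mice, with a Log2FC of 0.23 (edgeR, adjusted p = 0.690). *Slc7a11*, the cystine carrier, had at most 28 counts in a library and was not tested. *Fth1*, the heavy chain of ferritin, had a Log2FC of 0.19 (edgeR, adjusted p = 0.414). *Abcc4*, an exporter of conjugates and cyclic nucleotides, had 131 to 183 CPM in CONV-R mice and 213, 186, 228, 169 and 236 CPM in GF mice, so that 4 of 5 GF mice lay above all CONV-R mice. Its Log2FC of 0.39 fell just outside the threshold of edgeR and inside that of DESeq2 (adjusted p = 0.0550 and 0.0323). *Cbr3*, a carbonyl reductase and the other gene that DESeq2 called, had a Log2FC of -1.24 and groups that did not overlap, at 4 to 52 counts per library (adjusted p = 0.0790 with edgeR and 0.0402 with DESeq2). It is named here after its values were seen.

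In glutathione synthesis, *Gclc*, the catalytic subunit (ENSMUSG00000032350, chromosome 9, 77754535 to 77794485, plus strand), had 93.9 CPM at the lowest, 126 at the median and 144 at the highest in CONV-R mice. GF mice had 114, 111, 86.4, 109.7 and 129 CPM. The groups overlapped over most of their range, with a Log2FC of -0.14 and a standard error of 0.13 (edgeR, adjusted p = 0.565). *Gclm*, the modifier subunit that raises the efficiency of the catalytic one (ENSMUSG00000028124, chromosome 3, 122245557 to 122270732, plus strand), had 46.1, 57.1 and 80.0 CPM at the lowest, the median and the highest in CONV-R mice. Its GF values were 56.1, 56.8, 69.3, 66.2 and 71.6 CPM, of which 3 of 5 exceeded the CONV-R median. It shares exon bases with *Gm17494*, which had 165 counts over all libraries against 7384. Its Log2FC of 0.13 had a standard error of 0.14 (edgeR, adjusted p = 0.618), and 0.24 without CONV-R replicate 3 (edgeR, adjusted p = 0.224). *Gsr*, the glutathione reductase (ENSMUSG00000031584, chromosome 8, 33652523 to 33698163, plus strand), had 20.4 to 27.9 CPM in CONV-R mice, around a median of 23.8. GF mice had 22.2, 18.5, 24.7, 22.3 and 30.8 CPM, which spanned the whole CONV-R range. Its Log2FC was -0.03 with a standard error of 0.15 (edgeR, adjusted p = 0.939).

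Among 24 further genes that use or recycle glutathione, 21 were tested, 1 was higher and 0 were lower. That is 4.76% of those tested, against 7.48% of all genes in either direction and 4.80% higher. *Gsto1*, a glutathione transferase of the omega class, had 13.7 to 20.0 CPM in CONV-R mice and 23.1, 22.02, 24.6, 26.6 and 30.0 CPM in GF mice. All GF mice lay above all CONV-R mice, with a Log2FC of 0.65 and a standard error of 0.16 (edgeR, adjusted p = 0.0191). It lost the call without CONV-R replicate 4, CONV-R replicate 5 or GF replicate 6 (edgeR, adjusted p = 0.0506 to 0.0567). *Gpx1*, the cytosolic glutathione peroxidase, and *Glrx2*, a mitochondrial glutaredoxin, had Log2FC values of 0.38 and 0.01 (edgeR, adjusted p = 0.197 and 0.982). Reduced glutathione and thioredoxin are both restored with NADPH. Of 14 genes of NADPH supply and of the pentose phosphate pathway, 12 were tested, 0 were higher and 1 was lower. That is 8.33% of those tested, against 7.48% of all genes in either direction and 2.67% lower. The lower one was *Tkt*, the transketolase of the non-oxidative branch of that pathway, which does not itself make NADPH. It had 16.4 to 24.0 CPM in CONV-R mice and 15.5, 13.5, 10.1, 10.7 and 11.1 CPM in GF mice. All GF mice lay below all CONV-R mice, with a Log2FC of -0.68 and a standard error of 0.17 (edgeR, adjusted p = 0.0240). This call was lost without CONV-R replicate 2, GF replicate 4 or GF replicate 6 (edgeR, adjusted p = 0.0552 to 0.0623). *Nadk*, the NAD kinase, had a Log2FC of 0.16, and *Idh1*, the cytosolic isocitrate dehydrogenase, had one of -0.33 with 3 of 5 GF mice below all CONV-R mice (edgeR, adjusted p = 0.490 and 0.154).

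In the thioredoxin system, *Txnrd1* (ENSMUSG00000020250, chromosome 10, 82833951 to 82897712, plus strand) had 36.5 CPM at the lowest, 39.4 at the median and 61.6 at the highest in CONV-R mice. GF replicates 1, 2, 4, 5 and 6 had 30.4, 44.3, 46.7, 32.7 and 47.5 CPM. The GF mice fell on both sides of the CONV-R median, and 5 of the 6 CONV-R mice lay between GF replicates 5 and 2. Its Log2FC was -0.08 with a standard error of 0.17 (edgeR, adjusted p = 0.813), and 0.04 without CONV-R replicate 3. *Srxn1* (ENSMUSG00000032802, chromosome 2, 152105516 to 152111376, plus strand) had 9.45, 14.1 and 17.7 CPM at the lowest, the median and the highest in CONV-R mice and 12.3, 11.2, 11.05, 15.2 and 19.1 CPM in GF mice. The means were nearly equal, with a Log2FC of -0.02 and a standard error of 0.20 (edgeR, adjusted p = 0.978). All 12 other genes of the thioredoxin and peroxiredoxin list were tested and 0 were called, against 7.48% of all genes. At an unadjusted p under 0.05 there were 2, against 23.0% of all genes, and DESeq2 called 0 of these 12. *Txnip*, which binds and inhibits thioredoxin, was among the most abundant of these transcripts, with 1113 to 1404 CPM in CONV-R mice and 1553, 1287, 1784, 1269 and 1763 CPM in GF mice. In 3 of the 5 GF mice it lay above all CONV-R mice, and its Log2FC of 0.34 did not pass (edgeR, adjusted p = 0.0791). *Prdx1*, a cytosolic peroxiredoxin, had a Log2FC of -0.14 (edgeR, adjusted p = 0.641).

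*Cat* (ENSMUSG00000027187, chromosome 2, 103453849 to 103485160, minus strand) had 161 CPM at the lowest, 193 at the median and 211 at the highest in CONV-R mice. The 5 GF mice had 230.1, 158, 248, 167 and 210.5 CPM. The GF mice were spread over a wider range that took in the CONV-R range, with a Log2FC of 0.10 and a standard error of 0.13 (edgeR, adjusted p = 0.700). *Sod1* (ENSMUSG00000022982, chromosome 16, 90220754 to 90226329, plus strand) had 39.0, 42.2 and 82.4 CPM at the lowest, the median and the highest in CONV-R mice and 42.3, 33.9, 70.8, 57.4 and 44.9 CPM in GF mice. With a standard deviation of 33.5% of the mean in CONV-R mice it varied most of the 10 genes in that group. Its Log2FC of -0.01 had a standard error of 0.21 (edgeR, adjusted p = 0.987), and 0.18 without CONV-R replicate 3 (edgeR, adjusted p = 0.582). *Sod2* (ENSMUSG00000006818, chromosome 17, 13006846 to 13040063, plus strand) had 26.3, 32.4 and 37.8 CPM at the lowest, the median and the highest in CONV-R mice and 31.6, 33.7, 39.6, 30.0 and 29.4 CPM in GF mice. Its Log2FC was 0.03 with a standard error of 0.14 (edgeR, adjusted p = 0.945).

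CONV-R replicate 3 was the highest of its group for *Nfe2l2*, *Nqo1*, *Gclm*, *Txnrd1* and *Sod1*, and the lowest for *Gclc* and *Srxn1*. In GF mice, replicate 6 was the highest for *Nfe2l2*, *Gclc*, *Gclm*, *Txnrd1*, *Srxn1* and *Gsr*. The standard deviation ranged from 10.8% of the mean (*Gsr*) to 33.5% (*Sod1*) over the 10 genes in CONV-R mice, and from 11.2% (*Gclm*) to 35.6% (*Nqo1*) in GF mice.

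Of 14 further genes that remove or limit superoxide, repair oxidised protein or carry selenium, 13 were tested, 2 were higher and 0 were lower. That is 15.4% of those tested, against 7.48% of all genes in either direction and 4.80% higher. *Sesn2*, sestrin 2, which is induced by stress and restrains mTORC1, had 7.37 to 18.3 CPM in CONV-R mice (median 12.8). The GF mice had 36.3, 27.9, 28.6, 17.3 and 26.0 CPM, so that 4 of 5 lay above all CONV-R mice. Its Log2FC of 1.09 had a standard error of 0.22 (edgeR, adjusted p = 0.00588). *Ucp2*, a carrier of the inner mitochondrial membrane, had 109.8 to 242 CPM in CONV-R mice and 428, 356, 290.4, 295 and 326 CPM in GF mice. All GF mice lay above all CONV-R mice, with a Log2FC of 1.14 and a standard error of 0.18 (edgeR, adjusted p = 0.000857). Exons of *Ucp2* overlap those of *Dnajb13*, which had 491 counts over all libraries against 29478 for *Ucp2*, and which was itself higher in GF mice (Log2FC 1.88, edgeR, adjusted p = 0.00221). *Selenop*, the secreted selenoprotein that carries selenium, was far more abundant than the others, with 13436 ± 1677 CPM in CONV-R (SD, n = 6) and 11080 ± 2931 CPM in GF mice (SD, n = 5). Its Log2FC of -0.28 did not pass, and neither did the 0.17 of *Msrb3*, a methionine sulfoxide reductase (edgeR, adjusted p = 0.296 and 0.454).

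Of 17 genes whose products generate superoxide, hydrogen peroxide or nitric oxide, 12 were tested, 4 were higher and 0 were lower, which is 33.3% of those tested, against 7.48% of all genes in either direction and 4.80% higher. DESeq2 called 3 of the 12, and edgeR called 2, *Qsox1* and *Xdh*, in 6 of the 11 settings with a single mouse left out (CONV-R replicate 2, 4, 5 or 6, or GF replicate 2 or 6). *Qsox1*, a sulfhydryl oxidase that forms disulfides and releases hydrogen peroxide, had 13.01 to 21.1 CPM in CONV-R mice (median 18.5). The GF mice had 74.1, 86.1, 55.3, 81.4 and 57.8 CPM, all above every CONV-R mouse. Its level was 3.95-fold higher, with a Log2FC of 1.98 and a standard error of 0.16 (edgeR, adjusted p = 1.32e-06). *Qsox1* is among the genes that the study itself picked from these libraries, so its place on the list is not independent of its difference. *Xdh*, xanthine dehydrogenase, whose oxidase form makes superoxide while breaking down purines, had 219.8 to 289 CPM in CONV-R mice and 706, 746, 394, 499.6 and 451 CPM in GF mice. The groups did not overlap, with a Log2FC of 1.14 and a standard error of 0.15 (edgeR, adjusted p = 0.000177). *Qsox1*, *Xdh*, *Ucp2* and *Sesn2* passed the threshold with any single mouse left out.

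*Cybb* and *Ncf1* encode the membrane subunit and the p47phox organiser of the phagocyte NADPH oxidase. *Cybb* had 8.52 to 26.1 CPM in CONV-R mice and 19.4, 37.2, 21.8, 25.0 and 86.4 CPM in GF mice, and 3 of the GF mice lay within the CONV-R range. Its Log2FC was 1.23 with a standard error of 0.36 (edgeR, adjusted p = 0.0438), and it lost the call without GF replicate 6, where the Log2FC was 0.68 (edgeR, adjusted p = 0.179), with DESeq2 (adjusted p = 0.0567), with limma voom (adjusted p = 0.0789) and with limma on the deposited log2 values (adjusted p = 0.0610). Leaving out GF replicate 2 or any of CONV-R replicates 2 to 6 also ended the call (edgeR, adjusted p = 0.0592 to 0.0981). *Ncf1* had 0.97 to 3.19 CPM in CONV-R mice and 4.29, 5.12, 3.81, 3.31 and 12.6 CPM in GF mice, with no overlap, a Log2FC of 1.45 and a standard error of 0.41 (edgeR, adjusted p = 0.0392). Without GF replicate 6 its Log2FC was 0.97 (edgeR, adjusted p = 0.156), and it also lost the call without GF replicate 2 or CONV-R replicate 2, 4, 5 or 6 (edgeR, adjusted p = 0.0560 to 0.0864). Its exons overlap those of *Gtf2ird2*, which had 1917 counts against 427 for *Ncf1*. GF replicate 6 also had the highest summed level of markers of Kupffer cells, the resident macrophages of the liver. Of the 14 markers, 13 were tested, 9 were higher and 0 were lower, and none was at 0 in all libraries. Without *Slc40a1*, which supplied most of the sum in CONV-R mice, the other 13 markers summed to 109 to 283 CPM in CONV-R mice and to 346, 480, 271, 293 and 1189 CPM in GF replicates 1, 2, 4, 5 and 6. The part of Kupffer cell RNA in the levels of *Cybb* and *Ncf1* was not tested. Of the genes of this list without a call, *Nos3*, the endothelial nitric oxide synthase, which shares exon bases with *Gm15587* (2879 counts against 11496), had a Log2FC of 0.19, and *Pcyox1*, the prenylcysteine oxidase, one of 0.32 with 4 of 5 GF mice above all CONV-R mice (edgeR, adjusted p = 0.403 and 0.0972).

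**Figure D3:**
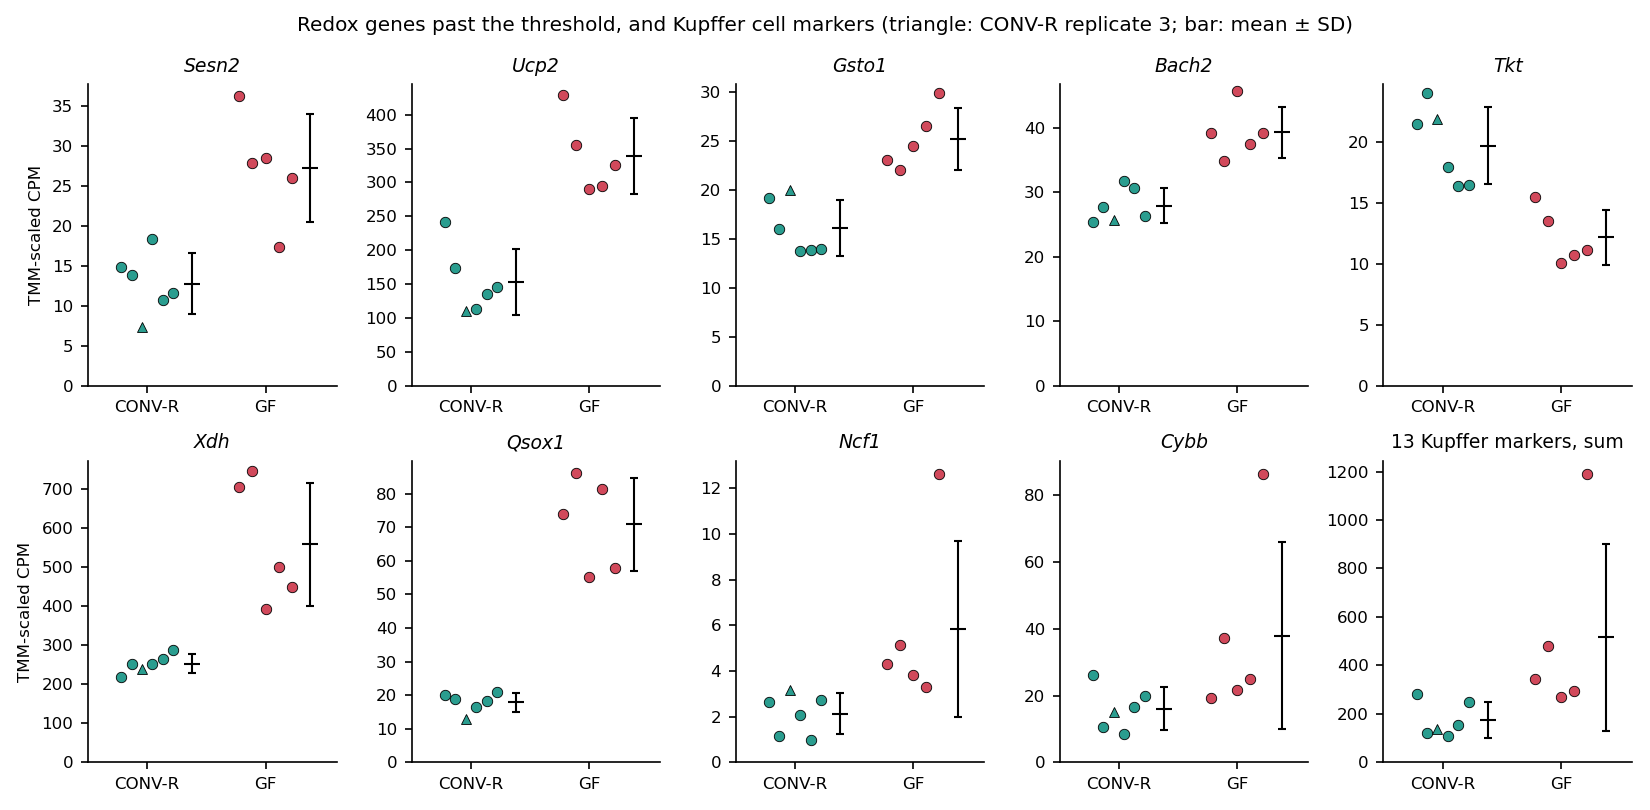
CPM in each mouse of the 9 redox genes outside the 10 that passed an adjusted p of 0.05, and the summed CPM of 13 Kupffer cell markers without *Slc40a1*. Each point is 1 mouse, the triangle is CONV-R replicate 3, the bar is the mean with its SD, and each axis starts at 0. *Ncf1*, *Cybb* and the Kupffer cell sum share their highest mouse, GF replicate 6, at 12.6, 86.4 and 1189 CPM.

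Over all 7 lists outside the 10 genes, 126 genes were listed, 108 were tested, 8 were higher and 1 was lower, 8.33% of those tested against 7.48% of all genes. With DESeq2 11 were called and with limma voom 8. Of the 9 called genes, 8 had a promoter window and 4 of these held one of the element cores, which 27.8% of all windows hold, and with so few windows nothing is read from this count.

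**Figure D4:**
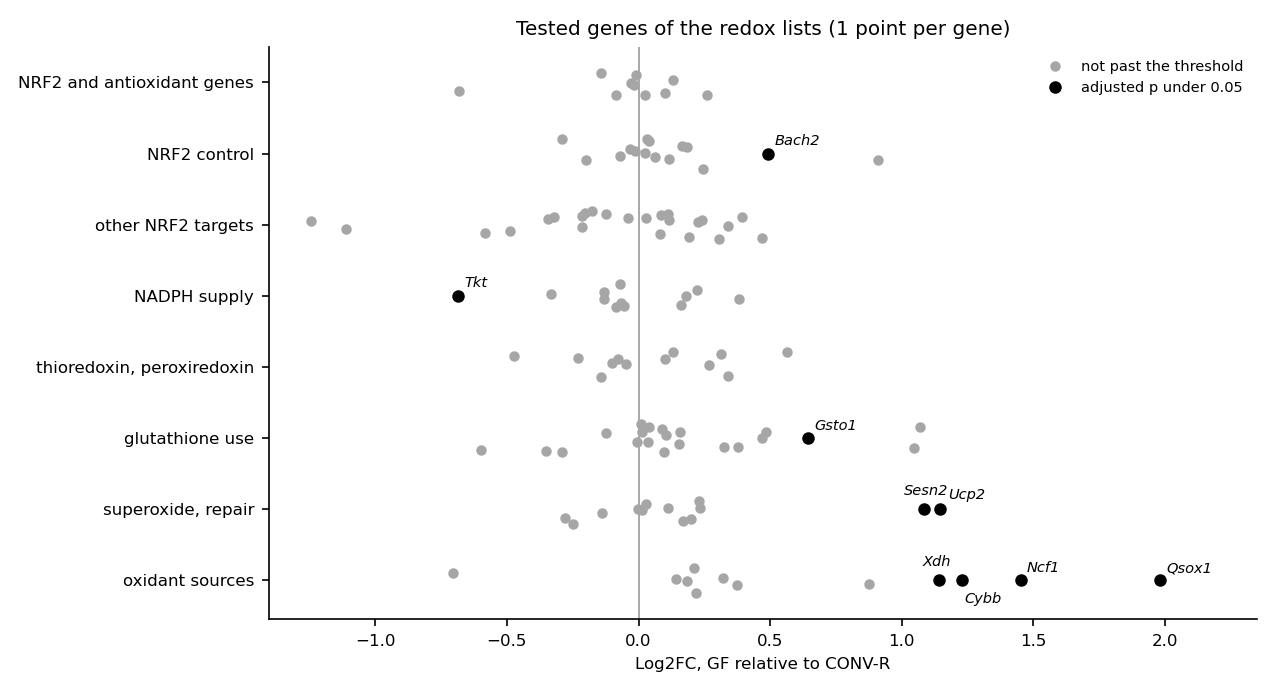
Log2FC in GF relative to CONV-R ECs for each tested gene of the 10 and of the 7 other redox lists, 1 point per gene. Black points with names passed an adjusted p of 0.05 in edgeR. The lines of the 10 genes, of the other NRF2 targets and of the thioredoxin and peroxiredoxin genes hold no black point, and the other lines hold 1 to 4.

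The levels of the 10 transcripts were set against each other as CPM per kilobase of all annotated exons. In CONV-R mice *Nfe2l2* had 105 ± 20.6, *Cat* 72.5 ± 7.87, *Gclc* 32.2 ± 5.26 and *Sod1* 12.7 ± 4.24 CPM per kilobase (SD, n = 6). *Gclm* had 9.29 ± 1.83, *Gsr* 8.77 ± 0.94, *Nqo1* 7.03 ± 1.25, *Txnrd1* 6.04 ± 1.33, *Srxn1* 4.91 ± 1.05 and *Sod2* 3.23 ± 0.52 CPM per kilobase (SD, n = 6). Over all 11 mice the ranges of neighbours in the order of mean level did not overlap between *Cat* and *Gclc* or between *Gclc* and *Sod1*, and overlapped for the other 7 neighbouring pairs. *Nfe2l2* was above *Cat* in each of the 11 mice, and *Gsr* above *Txnrd1*. *Txnrd1* lay above *Nqo1* in 5 mice and below it in 6. The exons of *Sod2* sum to 10008 bases over all annotated transcripts, the most of the 10 genes, and a library that holds mainly a shorter form would put its level per kilobase too low.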

How the data were processed

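Reads of 11 libraries, 1 per mouse, were trimmed with Trim Galore and mapped to GRCm38 with STAR by the authors, who left out a further GF library with fewer mapped reads. The authors deposited raw featureCounts counts per gene and values on a log2 scale normalized across libraries with the DESeq method. The strand setting and the annotation release of the counting are not given in the sources used here, so overlapping genes cannot be separated.

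Counts were analysed in R 4.3.3 with edgeR 4.0.16 (filterByExpr, TMM, quasi-likelihood test without covariates, Benjamini-Hochberg adjustment over 12905 genes, threshold 0.05). Intervals of 95% use the t distribution with the total degrees of freedom of this fit, the residual ones plus those that edgeR gains by sharing the spread across genes. DESeq2 1.42.0 and limma 3.58.1 (voom, and limma on the deposited log2 values) were alternatives, with other filters, DESeq2's size factors, a replicate block and each mouse left out. The test was tried on simulated counts with 200 changed genes. For summed marker levels the exact permutation test (two-sided, 462 splits of the mice) was used. Gene positions and exon lengths came from GENCODE M21. *Selenop* was matched by its identifier, since the table names it by an older symbol. No correction was made for amplification.

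The 10 genes, the 7 pathway lists and the 6 marker lists were chosen with earlier results of these data known. From each pathway list the text names every gene past the threshold and the 2 most abundant others, and always *Keap1*, *Bach1*, *Hmox1*, *Slc7a11*, *Txnip* and *Qsox1*. Total counts of 7242717 to 16164588 limit weakly expressed genes by counting error.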

Additional observations from a re-analysis of the deposited data

Results flagged for a closer look

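In 3 of the 20 pairs of a gene and a group, 1 mouse stood apart from its group by Dixon's criterion at the 95% level, which chance meets in about 1 of 20 groups. All 3 concern CONV-R replicate 3, the mouse that also stood apart on PC2. It had 551 CPM of *Nfe2l2*, with the nearest CONV-R mouse at 399.9, a gap of 0.732 of the range of the group. It had 80.0 CPM of *Gclm*, with the nearest at 58.2 and a gap of 0.645 of the range. It had 61.6 CPM of *Txnrd1*, with the nearest at 41.9 and a gap of 0.787 of the range. The 10 genes are not independent measures of 1 library, so the 3 values count as 1 library that stands apart.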

How the results depend on the processing

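The count of 0 called genes among the 10 held under all tests, filters and scalings of the full set of mice. It became 1 with CONV-R replicate 3 and GF replicate 2 both left out, a choice made after the data were seen, when *Nfe2l2* passed (Log2FC 0.44, edgeR, adjusted p = 0.0153). It ranged from 0 to 1 with single mice left out. The count of all called genes was 965 with edgeR, 968 with limma voom and 1527 of 15540 with DESeq2, and ranged from 622 (without GF replicate 6) to 1260 (without GF replicate 5). The count of other redox genes ranged from 5 (without CONV-R replicate 2 or GF replicate 6) to 12 (without GF replicate 5). With single mice left out, *Bach2*, *Gsto1* and *Tkt* kept their call in 8 of 11 settings each, *Ncf1* in 5 and *Cybb* in 4, and *Bach2* lost it without a filter on low counts (edgeR, adjusted p = 0.0738).

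Differences near 0 changed sign. With both libraries left out the Log2FC was 0.048 for *Gsr*, 0.30 for *Sod1* and 0.0087 for *Txnrd1*. With the deposited log2 values it was 0.014 for *Sod1* and 0.0089 for *Srxn1*, and with limma voom 0.012 for *Sod1*. With single mice left out it ranged from -0.14 to 0.047 for *Gsr*, from -0.17 to 0.18 for *Sod1*, from -0.051 to 0.072 for *Sod2*, from -0.16 to 0.066 for *Srxn1* and from -0.15 to 0.044 for *Txnrd1*. The cause was not tested. The ratio of GF to CONV-R for summed markers was 1.48 for Kupffer cells (exact permutation p = 0.0368, adjusted p = 0.110) and ranged from 1.16 (without GF replicate 6) to 1.59, and it was 2.94 for the 13 Kupffer cell markers other than *Slc40a1*, a choice made after the data were seen and given with no test. It was 0.542 for lymphocytes (exact permutation p = 0.0346, adjusted p = 0.110; 0.497 to 0.600), 1.07 for sinusoidal ECs (exact permutation p = 0.305; 1.03 to 1.12), 1.19 for hepatocytes (1.02 to 1.30), 0.914 for stellate cells (0.726 to 1.07) and 0.371 for neutrophils (0.297 to 0.509).

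Nothing in the sources says that the replicate numbers mark pairs. The deviations of same-numbered mice correlated between -0.04 and 0.25 over genes. Of the 5 GF mice, 2 correlated best with the CONV-R mouse of their own number. With so few numbers these values cannot decide whether the numbers mark a shared day, litter or batch. A block for the replicate number called 0 of the 10 genes, 10 other redox genes and 1096 genes in all. It gave a Log2FC of 0.15 for *Sod1* and 0.025 for *Txnrd1*, both of the other sign. CONV-R replicate 3 has no GF mouse of its number, so under this block it adds nothing to the difference between the groups. Leaving that mouse out with no block gave 0.18 for *Sod1* and 0.044 for *Txnrd1*. These sign changes can therefore not be ascribed to the block itself.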

Other observations

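Ratios of 2 transcripts within each mouse were formed for 4 pairs after the values of the 10 genes had been seen, and are therefore given with no test. The ratio of *Gclc* to *Gclm* counts, the catalytic to the modifier subunit of glutathione synthesis, had a median of 2.29 in CONV-R (range 1.17 to 2.48) and 1.80 in GF mice (range 1.25 to 2.03). The mean difference on the log2 scale was -0.28. CONV-R replicate 3 had the lowest ratio of all, and without it the difference was -0.45.

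The ratio of *Nfe2l2* to *Bach1* counts, the activator to a competitor for the same elements, had a median of 6.17 in CONV-R mice (range 4.04 to 8.19) and of 8.11 in GF mice (range 7.42 to 10.3). The mean difference on the log2 scale was 0.56, and 0.66 without CONV-R replicate 3, whose ratio was the highest of its group. The ranges of *Nfe2l2* to *Bach1* and of *Gclc* to *Gclm* overlapped between the groups. So did those of *Nfe2l2* to *Keap1* (17.7 to 45.3 in CONV-R and 19.2 to 35.9 in GF mice) and of *Sod1* to *Sod2* (1.12 to 2.21 and 1.01 to 1.91). The ratios are of transcripts, and protein was not measured in these libraries.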
